A study of Mus musculus with 19 samples.

Results

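Interferon-stimulated genes are genes whose transcription rises in cells exposed to interferons. The 9 described here are Irf7, Irf9, Stat2, Isg15, Ifit1, Ifit3, Oasl2, Rsad2 and Bst2, chosen by name. All 9 were present among the 13549 genes of the embryonic liver table and among the 17606 gene IDs of the tumour files. The study models fibrolamellar carcinoma, a liver cancer driven by the DNAJB1-PKA fusion kinase. RNA was sequenced from whole livers of mouse embryos at E18.5, with 5 libraries labelled control and 4 labelled as overexpressing the fusion. The fusion livers came from a cross of Rosa26 LSL-DNAJB1-PKA-GFP mice with Alb-Cre mice, in which the Albumin promoter drives the Cre recombinase, so that the fusion and its GFP reporter are switched on in the hepatocyte lineage from the middle of gestation. The labels do not say which of these alleles the control embryos carried. RNA was also sequenced from 10 tumours of FL8, a single mouse cell line implanted subcutaneously in NSG mice inside capsules of gelatin, 5 from mice given the methocel vehicle by mouth and 5 from mice given palbociclib, an inhibitor of the cell cycle kinases CDK4 and CDK6. Palbociclib was given at 75 mg/kg on 3 consecutive days followed by 4 days with no treatment. NSG mice lack T, B and NK cells and keep neutrophils and functionally impaired macrophages and dendritic cells. The tumour libraries hold RNA of the host's cells as well as of FL8, and both are mouse.

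Type I and type III interferons are secreted by cells that sense foreign or misplaced nucleic acid. They bind receptors that activate the kinases JAK1 and TYK2, which phosphorylate STAT2. STAT2 joins IRF9 in a complex named ISGF3, which enters the nucleus and binds a short DNA element, the interferon-stimulated response element, in front of its target genes. Interferon gamma acts through other receptors, and its targets overlap with those of ISGF3. In the liver, hepatocytes, Kupffer cells and endothelial cells can all respond.

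The response element holds a pair of GAAA letters set apart by any pair of bases, so the searched core was GAAANNGAAA, or TTTCNNTTTC when read on the other strand. The search covered the 250 bases before and the 50 bases from each RefSeq start (GRCm38.p6), and overlapping matches were counted separately. A match was found in the windows of 6 of the 9 genes and in 3.44% of all 32851 windows searched. It was also found for 16 of the 40 genes that have a window in a wider list of interferon-stimulated genes. The stretches below are shown because they hold every match among the 9 genes. Each runs 5′ to 3′ on the strand of its gene, with matches in capitals.
Isg15, chr4:156200855-156200916, minus strand: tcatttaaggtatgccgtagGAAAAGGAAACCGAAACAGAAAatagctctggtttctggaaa
Bst2, chr8:71537567-71537622, minus strand: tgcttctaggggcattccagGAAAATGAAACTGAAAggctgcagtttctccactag
Ifit1, chr19:34640765-34640833, plus strand: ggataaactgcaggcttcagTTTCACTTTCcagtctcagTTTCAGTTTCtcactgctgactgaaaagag
Ifit3, chr19:34583353-34583436, plus strand: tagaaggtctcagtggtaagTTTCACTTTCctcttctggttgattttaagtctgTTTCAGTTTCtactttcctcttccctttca
Rsad2, chr12:26456543-26456592, minus strand: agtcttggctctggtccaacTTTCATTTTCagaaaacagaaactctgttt
Stat2, chr10:128270256-128270305, plus strand: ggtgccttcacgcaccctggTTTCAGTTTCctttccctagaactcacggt

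Isg15 held 3 overlapping matches between 78 and 57 bases before its start, the largest number among the 9 genes. Bst2, Ifit1 and Ifit3 each held 2, while 0.225% of all windows held 2 or more. Rsad2 and Stat2 held 1 each. These letters were not found in the windows of Oasl2, Irf7 and Irf9, for which no stretch is shown. In GENCODE M21 (GRCm38) all 9 genes are protein-coding, and all 6 stretches lie before the annotated gene and outside its exons. Isg15 itself spans chr4:156199424-156200818 on the minus strand, with 2 exons. A match of letters is a description of the sequence and does not show that ISGF3 binds there.

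**Figure D1:**
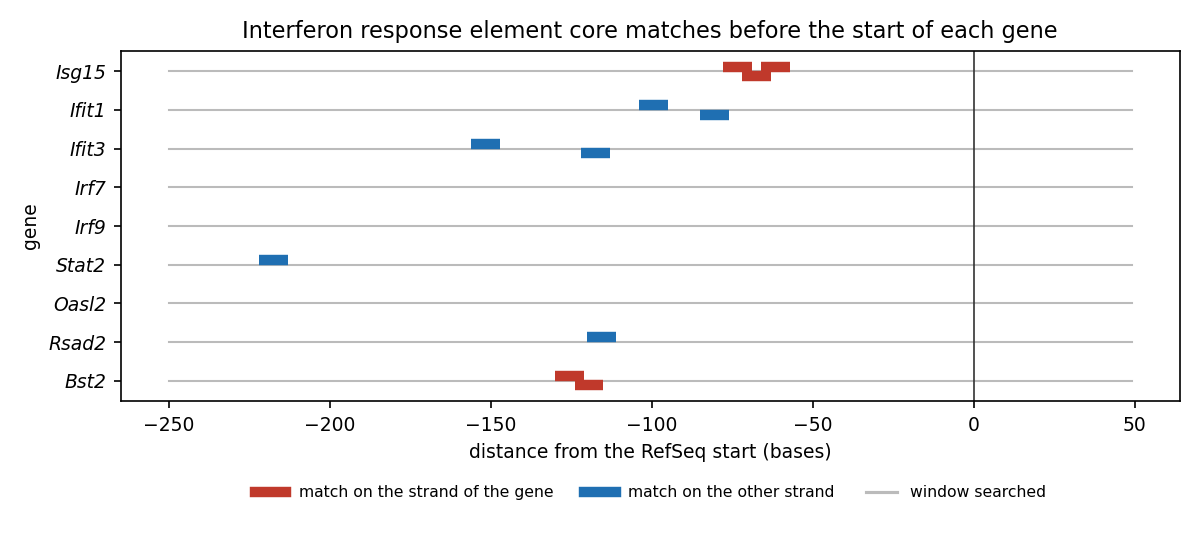
Positions of the response element core in the promoter window of each gene, with distance from the RefSeq start in bases on the horizontal axis and the start at 0. Bars are matches on the strand of the gene or on the other strand. The matches of Isg15 lie nearest to the start, and the single match of Stat2 lies farthest from it.

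Library totals ranged from 7660736 to 45591301 counts in the embryos and from 2955729 to 43141761 reads in the tumours. Each of the 9 genes had at least 122 counts in every embryo library, and at least 20 reads in every tumour. In 4 embryo libraries, controls 1 and 2 with fusion livers 8 and 9, between 7.76% and 8.41% of counts fell on ribosomal protein genes. The remaining 5 had 5.38% to 6.72%. This split, drawn from the counts themselves, is called the library batch here, and the labels name no batch. Erythroid markers summed to 4439 to 5454 CPM in the first 4 libraries and to 3152 to 4197 CPM in the remaining 5. Hepatocyte markers summed to 95094 to 137428 CPM and to 139027 to 181997 CPM, so neither marker sum overlapped between the batches. A technical difference and a difference in cell make-up cannot be told apart here. By Xist, control 1 and 2 and fusion 6, 7 and 8 were female, so that sex and genotype coincided within the batch of lower ribosomal share. In vehicle 1, 46.6% of reads came from mitochondrial genes, against 1.24% to 6.47% in the other tumours, and its summed level of macrophage markers was 2508 CPM against 119 to 451. Library totals include the mitochondrial reads, so the deposited CPM of all other genes is lowered in vehicle 1. Vehicle 5 had the lowest total of reads. The 10 hepatocyte markers were present in both experiments, with sums of 95094 to 181997 CPM in the livers and of 40548 CPM (vehicle 1) to 131131 CPM in the tumours.

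Levels are given as CPM, counts scaled by the library total, here with TMM factors for the livers. Per base of transcript, 3 of the 9 genes were abundant in the embryonic liver. In control livers Bst2 stood at 221 ± 86.4 (SD, n = 5) CPM per kilobase of exon, Isg15 at 184 ± 50.1 and Rsad2 at 75.1 ± 13.9, levels at the 98.2, 97.8 and 95.04 percentiles of the genes with a known length. The ranges of Bst2 and Isg15 overlapped, and every control library was lower for Rsad2 than the lowest value of either. Irf7 (14.4 ± 3.30), Irf9 (12.7 ± 2.60) and Ifit3 (10.3 ± 2.99) followed with overlapping ranges, then Stat2 (7.46 ± 1.48) and Ifit1 (6.60 ± 1.77), which also overlapped, and Oasl2 was lowest at 2.92 ± 0.356. In fusion livers Isg15 came first, at 304 ± 45.7 (SD, n = 4) CPM per kilobase, and its neighbour Bst2 stood at 193 ± 75.4 with an overlapping range. Lengths are of all annotated exons of a gene, and the levels of Irf7 and Irf9, which overlap a neighbouring gene, are uncertain.

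Of the 9 genes, 1 was called between fusion and control livers. Isg15, which encodes a ubiquitin-like protein that is attached to other proteins and also secreted, rose 1.65-fold, and the other 8 did not pass the test. Called here means an adjusted p under 0.05 in edgeR's quasi-likelihood test with Benjamini-Hochberg adjustment over 13316 genes. In that test 5.99% of all genes were called higher and 6.81% lower, and the 9 genes held 1 higher call and no lower one. The Isg15 call was lost in 7 of 9 fits that left out a library and in the batch of lower ribosomal share alone. Their median log2 fold change was 0.05, beside -0.01 over all genes tested, with 5 genes higher and 4 lower.

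Irf7, Irf9 and Stat2 encode the transcription factors of the response. Irf7, which drives expression of interferon genes themselves, stood at 43.9, 42.0, 72.2, 60.4 and 54.2 CPM in control 1 to 5 and at 79.1, 69.0, 45.3 and 54.2 CPM in fusion 6 to 9. The groups overlapped, and within each genotype the libraries of the batch with more ribosomal protein counts were the lower ones. The difference between genotypes was 0.17 on the log2 scale (95% interval -0.26 to 0.59).
Irf9, the DNA-binding subunit of ISGF3, stood at 71.7, 89.6, 64.0, 64.2 and 51.5 CPM in the controls and at 57.5, 56.0, 72.3 and 63.8 CPM in the fusion livers. Control 2 was highest, and all fusion values lay inside the control range, for a log2 fold change of -0.14 (95% interval -0.49 to 0.20).
Stat2, the ISGF3 subunit that carries the activation domain, stood at 39.4, 32.4, 55.0, 49.8 and 44.3 CPM in the controls and at 44.4, 39.0, 32.5 and 33.6 CPM in the fusion livers. All fusion values lay inside the control range here as well. The log2 fold change was -0.26 (95% interval -0.60 to 0.09), and the adjusted p of 0.303 was the smallest among the 8 genes that were not called.

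Isg15 stood at 78.6, 132.8, 166.2, 175.0 and 143.7 CPM in control 1 to 5 and at 203.8, 197.9, 249.9 and 268.3 CPM in fusion 6 to 9. The lowest fusion liver was above the highest control. Groups that do not overlap with the fusion higher were found for 9.26% of all genes tested, and with the fusion lower for 7.60%. Group means were 139 ± 37.9 CPM (n = 5) and 230.0 ± 34.5 CPM (n = 4), each ± SD. The log2 fold change of Isg15 was 0.71, with a standard error of 0.21, a 95% interval of 0.25 to 1.16 and an adjusted p of 0.0456 in edgeR. Within the batch of higher ribosomal share the difference was 1.28 (adjusted p = 0.0049) and within the other batch 0.30 (adjusted p = 0.0949), and with the batch as a covariate it was 0.74 (adjusted p = 0.0092). With sex as a covariate it was 0.90 (adjusted p = 0.0141). The call was lost in edgeR when control 2, 3 or 5 or fusion 6, 7, 8 or 9 was left out, with adjusted p-values up to 0.109 and log2 fold changes of 0.57 to 0.80 over all 9 such fits.

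Ifit1 and Ifit3 encode proteins that recognise foreign RNA by its ends or work beside one that does. Ifit1 stood at 14.1, 23.2, 21.7, 16.2 and 12.5 CPM in the controls and at 14.0, 15.2, 22.8 and 24.7 CPM in the fusion livers. Ifit3 stood at 11.9, 16.8, 25.1, 21.4 and 15.0 CPM in the controls and at 21.4, 20.2, 20.5 and 22.8 CPM in the fusion livers. For both genes the groups overlapped. The 4 fusion livers lay close together for Ifit3, with a mean of 21.2 ± 1.17 (SD, n = 4) CPM against 18.1 ± 5.21 (SD, n = 5), while for Ifit1 they split by library batch. The log2 fold changes were 0.11 (95% interval -0.38 to 0.61) for Ifit1 and 0.21 (-0.20 to 0.62) for Ifit3.

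Oasl2, a relative of the oligoadenylate synthetases, stood at 18.5, 17.7, 22.6, 17.1 and 17.2 CPM in the controls and at 19.6, 19.6, 12.8 and 20.2 CPM in the fusion livers. It varied least among the controls, and fusion 8 was the lowest library of all. Its difference was -0.06 on the log2 scale (95% interval -0.39 to 0.27).
Rsad2 encodes viperin, an enzyme that makes a nucleotide analogue which stops viral RNA synthesis. It stood at 310.5, 432.8, 295.4, 293.4 and 294.8 CPM in the controls and at 276.3, 286.4, 350.9 and 448.1 CPM in the fusion livers.
Bst2 encodes tetherin, a membrane protein that holds budding virus particles on the cell. It stood at 243.6, 312.4, 178.5, 138.8 and 125.2 CPM in the controls and at 97.3, 138.6, 215.8 and 244.9 CPM in the fusion livers. For Rsad2 and Bst2 the genotypes overlapped, but the library batches did not. Rsad2 ranged from 310.5 to 448.1 CPM in the batch of higher ribosomal share and from 276.3 to 295.4 in the other, and Bst2 from 215.8 to 312.4 and from 97.3 to 178.5. Over all genes tested, 10.0% were higher in that batch without overlap and 10.2% were lower. The log2 fold changes with the fusion were 0.05 (95% interval -0.35 to 0.45) for Rsad2 and -0.22 (-0.92 to 0.48) for Bst2.

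**Figure D2:**
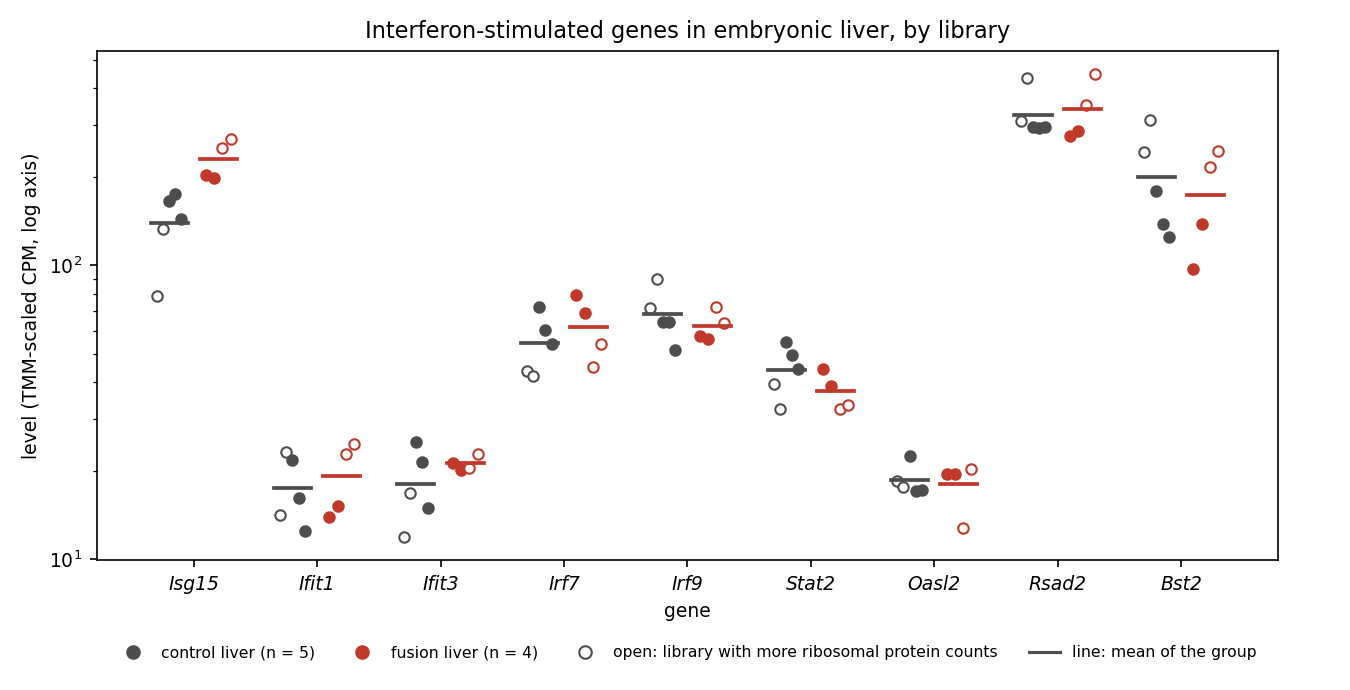
Level of each gene in every embryonic liver library, in TMM-scaled CPM on a log axis, with a line at each group mean and open points for the 4 libraries with more ribosomal protein counts. The groups separate for Isg15, and the open and filled points separate for Rsad2 and Bst2.

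The 9 genes did not move as a single unit across the livers. Pearson correlations of their log2 levels over the 9 libraries ranged from -0.79 to 0.84 over the 36 pairs, with a median of -0.02, and 18 pairs were below 0. The highest was between Irf9 and Bst2 (r = 0.84, exact permutation p = 0.0039, adjusted 0.0709 over 36 pairs; Spearman's rho = 0.75, exact permutation p = 0.0255, adjusted 0.222), and r was 0.77 without control 2 and control 5, the libraries farthest from the median of Irf9. Rsad2 and Bst2, which split by batch, had r = 0.82 (exact permutation p = 0.00268, adjusted 0.0709) and rho = 0.92 (exact permutation p = 0.00131, adjusted 0.0472), with r = 0.77 without control 2 and fusion 9. Isg15 and Ifit3 had r = 0.82 (exact permutation p = 0.00799, adjusted 0.0719) and rho = 0.62 (exact permutation p = 0.0857, adjusted 0.257), and r fell to 0.51 without control 1 and fusion 9. The permutations moved libraries freely across genotypes and batches, so their p-values do not separate joint variation of 2 genes from the batch split. The batches, of 4 and 5 libraries, were too small for a correlation of their own. The genes outside the 9 whose levels were most like the mean standardised level of the 9 were Ift74 (r = 0.90), Il22ra1 (0.89), Nudc (0.87), Wasf1 (0.85) and Dhx58 (0.84), all over 9 libraries that share these batches. Of these, Dhx58, which encodes the RNA sensor family member LGP2, is itself an interferon-stimulated gene.

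**Figure D3:**
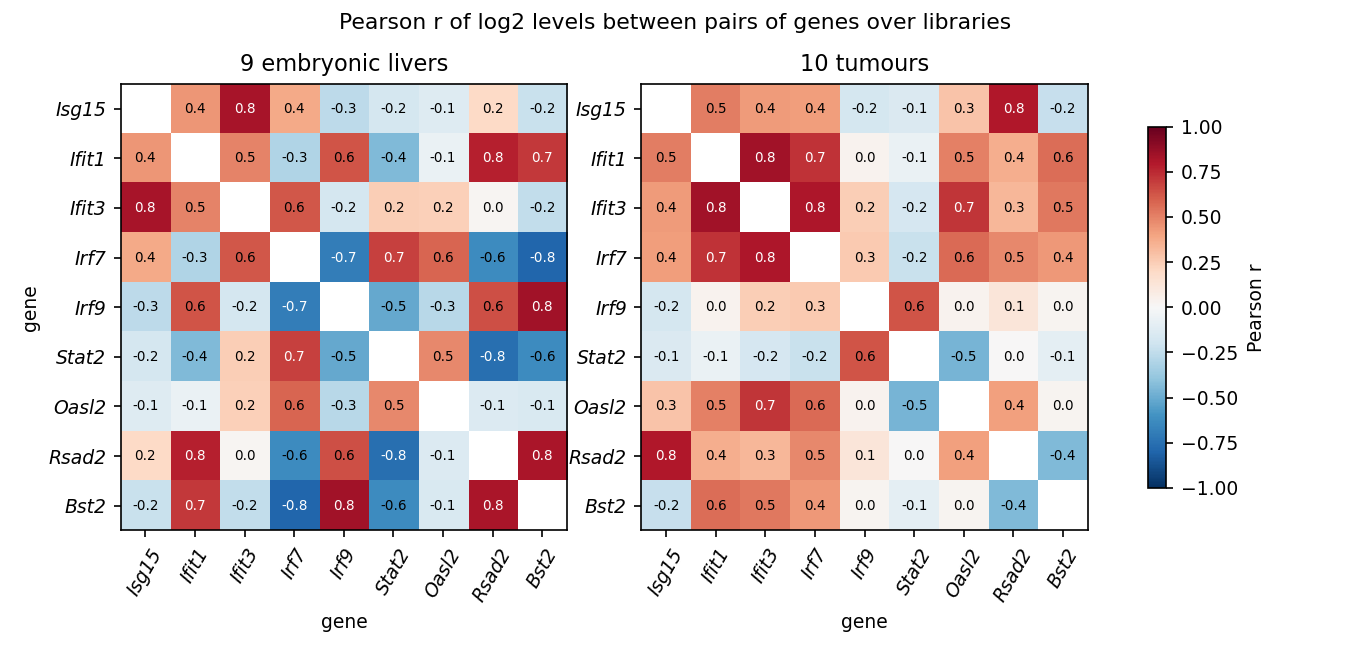
Pearson r of log2 levels for each pair of the 9 genes over the 9 livers (left) and the 10 tumours (right), printed to 1 decimal and coloured from -1 to 1. Blue cells, pairs that varied in opposite directions, are more numerous in the livers (18 of 36 pairs) than in the tumours (9 of 36). Levels are TMM-scaled CPM in the livers and CPM as deposited in the tumours.

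Upstream of the 9 genes, transcripts of the sensing machinery were not called in the livers. None of 14 genes for nucleic acid sensors and their signalling passed the test in edgeR, none was called by DESeq2, and 5 had an unadjusted p under 0.05, 2 of them higher and 3 lower. Over all genes tested 13.9% were higher and 15.4% lower at that unadjusted p. The smallest p-values belonged to Tbk1 (17.0 ± 4.12 and 24.1 ± 2.59 CPM, adjusted p = 0.0928), Mavs (37.2 ± 7.34 and 51.9 ± 11.4 CPM, adjusted p = 0.109) and Ikbke (22.4 ± 4.23 and 17.5 ± 2.85 CPM, adjusted p = 0.149), given as control (n = 5) and fusion (n = 4) means ± SD from edgeR's test. With the library batch as a covariate 3 of the 14 (Tbk1, Mavs and Ifih1) were called higher, in a fit that called 16.1% of all genes higher and 16.5% lower. The interferon genes themselves are not analysed here in the livers.

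Among 11 genes for interferon receptors and their kinases, 2 fell and none rose, beside 6.81% and 5.99% of all genes without a covariate. Tyk2, the kinase bound to the type I receptor, fell from 20.6 ± 1.91 to 15.3 ± 0.603 CPM (log2 fold change -0.45 ± 0.11 SE, adjusted p = 0.0234 in edgeR), with no overlap between the groups. Ifnlr1, the receptor chain specific to type III interferons, fell from 4.48 ± 0.83 to 2.89 ± 0.394 CPM (-0.64 ± 0.19 SE, adjusted p = 0.0496 in edgeR), also without overlap. The third smallest p was that of Jak1, the partner kinase of Tyk2 (log2 fold change 0.35, adjusted p = 0.162). The Tyk2 call was lost without control 1 or 3 or fusion 6, 7 or 8 (adjusted p up to 0.0655), and that of Ifnlr1 in every fit that left out a library other than control 4 (adjusted p up to 0.137). Ifnlr1 was also not called with sex as a covariate (adjusted p = 0.0698) or in either batch alone, while Tyk2 was called in each of these.

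Of 51 other interferon-stimulated genes, 1 rose and 2 fell, beside 5.99% and 6.81% of all genes without a covariate. The median log2 fold change of the 51 was 0.01. Ifi204, a DNA sensor of the p200 family, rose from 17.0 ± 3.42 to 24.6 ± 1.69 CPM (log2 fold change 0.52 ± 0.15 SE, adjusted p = 0.0425 in edgeR). Ly6e, a membrane-anchored protein that hinders entry of some viruses, fell from 338.7 ± 31.4 to 233.8 ± 29.0 CPM (-0.55 ± 0.13 SE, adjusted p = 0.021). Ifi47, a GTPase of the immunity-related family, fell from 28.9 ± 6.49 to 19.4 ± 3.58 CPM (-0.60 ± 0.18 SE, adjusted p = 0.0459). With the library batch as a covariate 13 of the 51 were called, 5 higher and 8 lower, in the fit that called 16.1% and 16.5% of all genes. With sex as a covariate 2 were called higher and 1 lower, in a fit that called 4.18% of all genes higher and 5.47% lower, and Ifi47 was not called (-0.45, adjusted p = 0.0832). Ifi47 differed by -0.19 in the batch of higher ribosomal share (adjusted p = 0.470) and by -0.90 in the other (adjusted p = 0.00748). Ifi204 was not called in the batch of lower share alone (0.42, adjusted p = 0.0903). Left-out libraries ended the call of Ly6e in 4 of 9 fits (control 3, fusion 6, 7 or 8, adjusted p up to 0.0637), that of Ifi204 in all fits but the one without control 4 (up to 0.099), and that of Ifi47 in all but those without control 1 or fusion 9 (up to 0.125).

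In edgeR without a covariate, which called 5.99% of all genes higher and 6.81% lower, 1 of 10 genes that restrain interferon signalling rose. It was Usp18, which encodes the protease that removes ISG15 from proteins and blocks the type I receptor, and it rose from 33.1 ± 4.00 to 47.1 ± 8.13 CPM (log2 fold change 0.50 ± 0.14 SE, adjusted p = 0.0364 in edgeR), with no overlap between the groups. The phosphatase genes Ptpn6 (-0.25, adjusted p = 0.205) and Ptpn11 (0.30, adjusted p = 0.293) came next by p and were not called in that fit. With the library batch as a covariate 3 of the 10 were called higher (Ptpn1, Ptpn11 and Usp18) and 1 lower (Ptpn6). That fit called 16.1% of all genes higher and 16.5% lower. In the batch of lower ribosomal share alone, edgeR called Ptpn11 (0.54, adjusted p = 0.00889) and Usp18 (0.72, adjusted p = 0.00208) higher, among 2950 calls in 13524 genes. The Usp18 call was lost without control 1, 3, 4 or 5 or fusion 6 or 7 (adjusted p up to 0.0939) and in the batch of higher ribosomal share alone, where the log2 fold change was 0.24. It was also lost with sex as a covariate (0.43, adjusted p = 0.0905).

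Genes known mainly as targets of interferon gamma fell or were not called. Of 18 tested, 3 fell and none rose, beside 6.81% and 5.99% of all genes without a covariate. A log2 fold change below 0 was found for 16 of the 18 and for 6891 of all 13316 genes tested. The median was -0.24, beside -0.01 over all genes tested. Iigp1, a GTPase that attacks the vacuoles of intracellular parasites, fell from 55.0 ± 17.4 to 15.1 ± 10.4 CPM, a log2 fold change of -1.90 ± 0.39 (SE, adjusted p = 0.00972 in edgeR), with control livers between 37.7 and 83.9 CPM and fusion livers between 7.99 and 30.2 CPM. Its call held in each of the 9 fits that left out a library (-2.48 to -1.67), with sex as a covariate (-1.71) and in both batches, where the log2 fold change was -1.005 with the higher ribosomal share and -2.95 with the lower. Tap1, a subunit of the peptide transporter for antigen presentation, fell by 0.56 on the log2 scale (adjusted p = 0.0285 in edgeR), and Igtp, another immunity-related GTPase, fell by 0.48 (adjusted p = 0.0299). Both calls were lost without control 1, 2, 3 or 4 or fusion 6, 7 or 8 (adjusted p up to 0.0811 for Tap1 and 0.0894 for Igtp). Igtp was also not called with sex as a covariate (adjusted p = 0.0587) or in the batch of higher share (0.0729), nor Tap1 in the batch of lower share (0.0567). With the batch as a covariate 8 of the 18 were called lower, beside 16.5% of all genes, with sex as a covariate 2, beside 5.47%, and by DESeq2 5, beside 9.21% (9.16% of all genes were higher by DESeq2). None of the 18 was called higher in these 3 fits, and in the batch of higher share alone Irgm1 was.

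Markers of immune and liver cells are given beside these groups. The summed level of 14 macrophage markers was 1560 to 1804 CPM in the controls and 1394 to 1493 CPM in the fusion livers, without overlap, with 10 of 14 markers lower. None was called in edgeR without a covariate, where 2 had an unadjusted p under 0.05, both lower. With the library batch as a covariate edgeR called 4 lower (C1qa, C1qb, Cd5l and Clec4f), each batch alone gave 1 lower call, with sex as a covariate there was none, and DESeq2 called 2 lower (C1qb and Clec4f). Neutrophil markers summed to 5574 to 7854 and 4408 to 6661 CPM. Under the batch covariate 5 of 9 were called lower, beside 16.5% of all genes. None was called without a covariate, with sex as a covariate, by DESeq2 or in the batch of lower ribosomal share. In the other batch 2 were lower and S100a8 was higher. Hepatocyte markers summed to 130377 to 181997 and 95094 to 156330 CPM. Of 10, edgeR without a covariate called 1 lower, the batch covariate 5 lower and 1 higher, and DESeq2 4 lower. In RNA from whole tissue, fewer cells of a type and less RNA per cell cannot be told apart. The part of these cells in the lower levels of Iigp1, Tap1, Igtp, Ifi47 and Ly6e, and in the higher level of Isg15, was not tested.

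**Figure D4:**
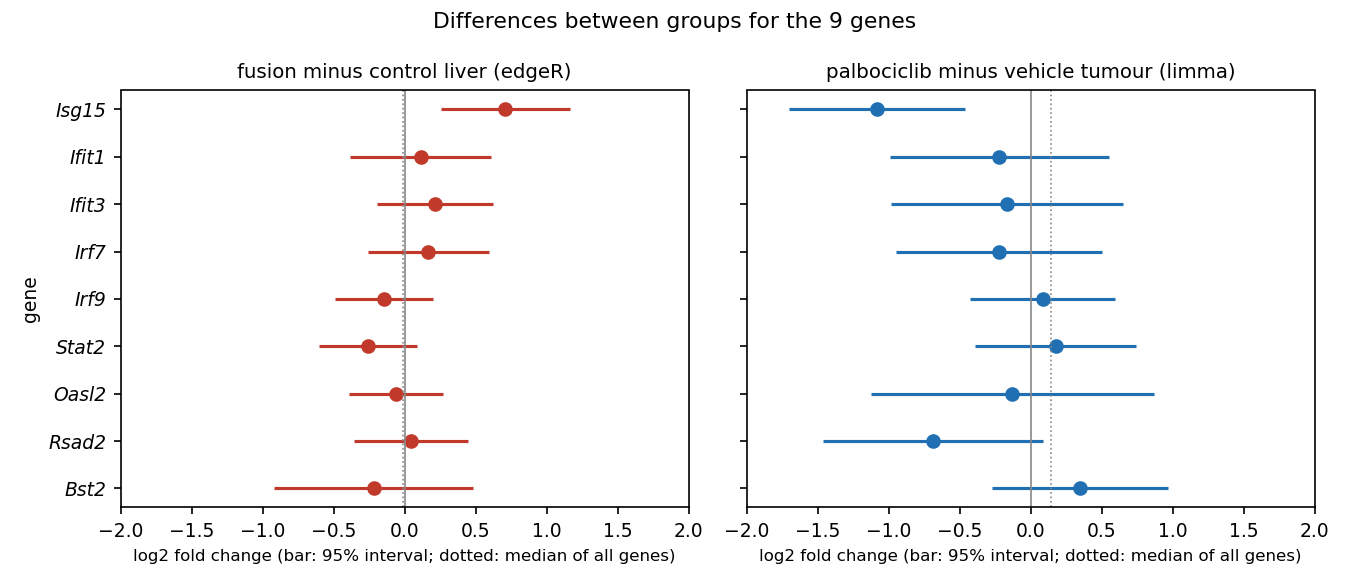
Log2 fold change of each gene with its 95% interval, fusion against control livers (left) and palbociclib against vehicle tumours (right), with a solid line at 0 and a dotted line at the median of all genes tested. The interval of Isg15 lies above 0 in the livers and below 0 in the tumours, and those of the other 8 genes cross 0 in both.

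In the tumours none of the 9 genes was called, and Isg15 came nearest, lower after palbociclib. Per kilobase of exon, Bst2 was the most abundant in vehicle tumours (207 ± 109 CPM, SD, n = 5, at the 98.1 percentile of genes with a known length). Isg15 (45.6 ± 16.1) and Irf7 (31.2 ± 13.0) followed, with ranges that overlapped each other and lay below every Bst2 value, and then Ifit3 (19.9 ± 8.07), which overlapped with Irf7. Ifit1, Stat2 and Rsad2 stood at 11.5 ± 5.04, 10.2 ± 3.26 and 10.0 ± 5.22 with overlapping ranges, Irf9 at 3.97 ± 0.528 and Oasl2 at 1.85 ± 2.05, whose ranges overlapped as well. In palbociclib tumours Bst2 was again first, at 244 ± 47.4 (SD, n = 5), and Isg15 stood behind Irf7, at 21.03 ± 8.87 against 26.9 ± 12.1, with overlapping ranges.

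The tumours were tested with limma on log2(CPM + 1) over 12829 genes, and 0% of genes were called higher and 0% lower at an adjusted p under 0.05. At an unadjusted p under 0.05, 3.73% were higher and 0.842% lower with palbociclib, and 1 of the 9 genes, Isg15, was among the lower ones. The median log2 fold change of the 9 genes was -0.17, with 3 higher and 6 lower, and that of all genes 0.14. After TMM scaling these medians were -0.32 and 0.01, and on the recovered reads that of the 9 genes was -0.35 in edgeR and -0.38 in DESeq2. It was -0.37 without vehicle 2, -0.44 without palbociclib 5, -0.017 without vehicle 1, -0.022 without vehicle 5 and -0.0055 without palbociclib 2. With vehicle 1 and vehicle 5 both left out it was 0.086. DESeq2 on the recovered reads called 8 genes and none of the 9.

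Among the transcription factors, Irf7 stood at 176.9, 64.2, 115.3, 76.1 and 156.3 CPM in vehicle 1 to 5 and at 159.0, 50.7, 76.5, 81.99 and 140.3 CPM in palbociclib 1 to 5. The groups overlapped over nearly their whole range, with a log2 fold change of -0.22 (95% interval -0.95 to 0.50).
Irf9 stood at 21.1, 26.0, 18.6, 21.7 and 19.6 CPM in the vehicle tumours and at 28.2, 17.2, 18.2, 26.0 and 25.6 CPM in the palbociclib tumours. It spread least of the 9 genes over the tumours, with log2 fold changes of 0.08 (95% interval -0.43 to 0.60) on CPM and -0.06 after TMM scaling.
Stat2 stood at 35.1, 80.9, 65.7, 74.02 and 45.7 CPM in the vehicle tumours and at 76.6, 44.1, 61.5, 73.7 and 76.2 CPM in the palbociclib tumours. In CPM as deposited, vehicle 1 and palbociclib 2 were the lowest of their groups. The mitochondrial reads of vehicle 1, 46.6% of its total, lower its value. The log2 fold change was 0.17 (95% interval -0.39 to 0.74).

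Isg15 stood at 33.9, 27.9, 55.1, 23.6 and 31.8 CPM in vehicle 1 to 5 and at 12.6, 12.3, 14.0, 12.7 and 27.8 CPM in palbociclib 1 to 5. The first 4 palbociclib tumours lay below every vehicle tumour, and palbociclib 5 lay among them. The mean was 34.5 ± 12.2 CPM (SD, n = 5) with vehicle and 15.9 ± 6.71 CPM (SD, n = 5) with palbociclib, and the log2 fold change was -1.08, with a standard error of 0.29 and a 95% interval of -1.70 to -0.46. Its unadjusted p in limma was 0.00187 and its adjusted p 0.953, so it did not pass the correction over all genes. The difference was -0.90 to -1.29 when each tumour was left out in turn, -1.23 after TMM scaling and, with vehicle 1 and vehicle 5 both left out, still without a call (adjusted p = 0.390 in limma). DESeq2 on the recovered reads gave the smallest adjusted p, 0.0925.
In the same tumours Rsad2 stood at 58.4, 43.3, 72.5, 18.9 and 24.0 CPM in the vehicle tumours and at 22.7, 13.0, 23.8, 24.4 and 41.3 CPM in the palbociclib tumours. Vehicle 4 and 5 lay inside the palbociclib range and vehicle 1, 2 and 3 above it. The log2 fold change was -0.69 ± 0.37 (SE, unadjusted p = 0.0776 and adjusted p = 0.953 in limma). On the recovered reads Rsad2 was -1.07 in edgeR (unadjusted p = 0.0239, adjusted p = 0.904) and -1.08 in DESeq2 (unadjusted p = 0.00924, adjusted p = 0.544).
Markers of red cells and neutrophils were also higher in some vehicle tumours. Erythroid markers summed to 328, 573, 1768, 186 and 86.3 CPM in vehicle 1 to 5 and to 78.2 to 144 CPM with palbociclib, with 4 of 5 tested lower and none called. Neutrophil markers summed to 29.4 to 156 CPM and to 11.6 to 57.5 CPM, and the neutrophil marker Ly6g was at 0 in every palbociclib tumour. In CPM as deposited, vehicle 3 was the highest tumour for Isg15, for Rsad2 and for erythroid markers. The mitochondrial reads of vehicle 1, 46.6% of its total, lower its CPM for all other genes. The order of vehicle 1 and vehicle 3 for Isg15 and Rsad2 therefore depends on the scaling. The part of these cells in the levels of Isg15 and Rsad2 was not tested.

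Ifit1 stood at 29.5, 17.1, 28.3, 24.4 and 52.8 CPM in the vehicle tumours and at 22.1, 12.4, 27.3, 19.0 and 57.7 CPM in the palbociclib tumours. Ifit3 stood at 49.7, 18.2, 26.3, 30.4 and 49.1 CPM in the vehicle tumours and at 32.9, 18.0, 18.3, 22.3 and 79.8 CPM in the palbociclib tumours. Both genes were highest in palbociclib 5, and their groups overlapped. The log2 fold changes were -0.22 (95% interval -0.99 to 0.55) for Ifit1 and -0.17 (-0.98 to 0.65) for Ifit3.
Oasl2 stood at 35.1, 4.65, 5.21, 7.23 and 6.77 CPM in the vehicle tumours and at 5.68, 5.40, 7.76, 5.70 and 19.5 CPM in the palbociclib tumours. Vehicle 1, the tumour with the high macrophage and mitochondrial shares, stood far above the rest, and the value of vehicle 5 rested on 20 reads. The log2 fold change was -0.13 (95% interval -1.13 to 0.87), and 0.35 without vehicle 1. The part of the macrophage RNA in the Oasl2 level of vehicle 1 was not tested.
Bst2 stood at 143.0, 108.9, 146.1, 177.0 and 357.9 CPM in the vehicle tumours and at 265.7, 199.7, 185.9, 183.0 and 268.0 CPM in the palbociclib tumours. In CPM as deposited the vehicle tumours lay below the palbociclib tumours, apart from vehicle 5, the highest of all. The mitochondrial reads of vehicle 1 lower its value here too. The log2 fold change was 0.35 (95% interval -0.27 to 0.96). Bst2 was 0.61 without vehicle 5, 0.19 without vehicle 2, 0.20 after TMM scaling, and 0.059 in edgeR and 0.036 in DESeq2 on the recovered reads. Groups without overlap were rare in these data, 0.834% of genes with palbociclib higher and 0.101% with palbociclib lower, and none of the 9 genes was among them.

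**Figure D5:**
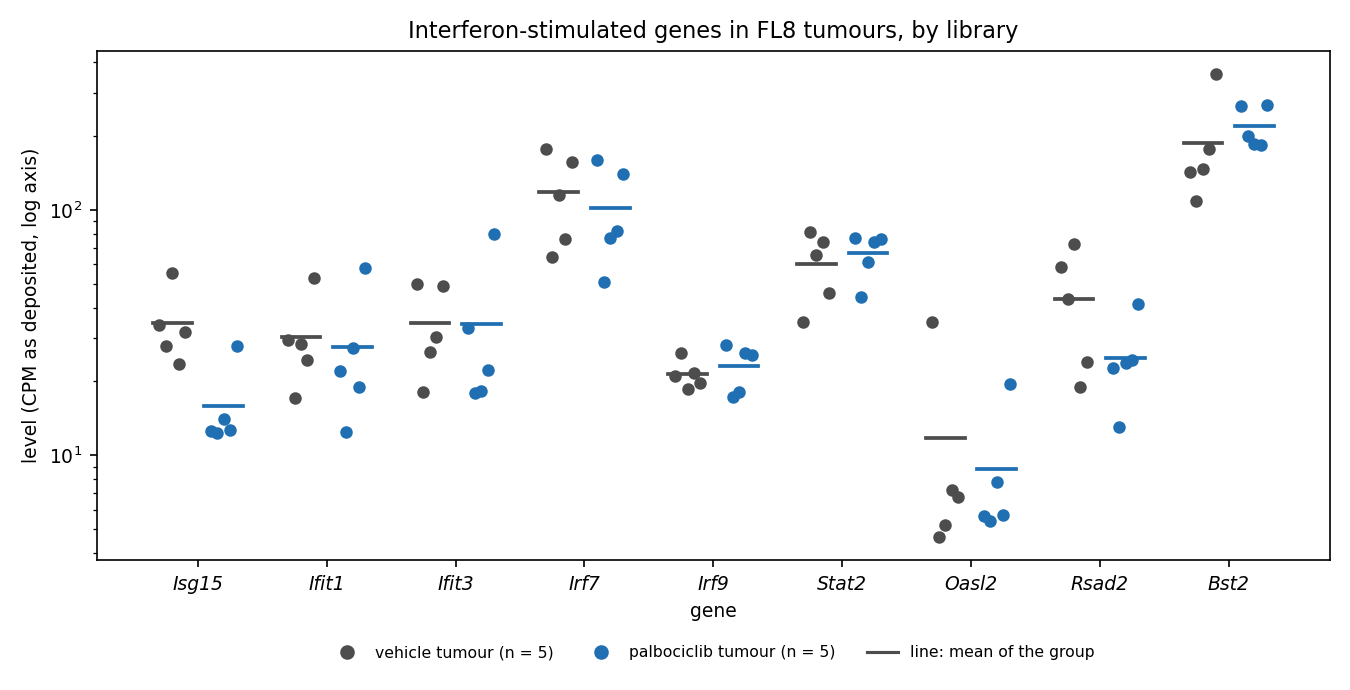
Level of each gene in every tumour, in CPM as deposited on a log axis, with a line at each group mean. For Isg15 all palbociclib tumours but 1 lie below the vehicle tumours, and Oasl2 shows the high value of vehicle 1 at 35.1 CPM.

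Across the 10 tumours the 9 genes varied together more than across the livers, with a median pairwise r of 0.31 and a range of -0.46 to 0.84, although the difference between the experiments was not tested. The scaling also differed, with TMM factors in the livers and CPM as deposited in the tumours. In deposited CPM the mitochondrial reads of vehicle 1 lower all its other genes together. Palbociclib 5 lay above the mean over tumours for 9 of 9 genes, and palbociclib 2 for 1 of 9, with the lowest value of 6 genes. Ifit1 and Ifit3 had r = 0.84 (permutation p = 0.00179, adjusted 0.0644 over 36 pairs) and rho = 0.84 (permutation p = 0.00381, adjusted 0.0686), and r = 0.61 without palbociclib 5 and vehicle 5, the tumours farthest from the median of Ifit1. Ifit3 and Irf7 had r = 0.81 (permutation p = 0.0048, adjusted 0.0719) and rho = 0.84 (permutation p = 0.00351, adjusted 0.0686), and r = 0.84 without palbociclib 5 and vehicle 1. Isg15 and Rsad2 had r = 0.80 (permutation p = 0.00599, adjusted 0.0719) and rho = 0.82 (permutation p = 0.00614, adjusted 0.0737), and r = 0.60 without palbociclib 2 and vehicle 3. No pair passed the adjustment in the tumours. The genes outside the 9 most like their mean standardised level over the 10 tumours were A530040E14Rik (r = 0.94), Drap1 (0.91), Bcl2 (0.90), Gbp3 (0.90) and Mpp6 (0.90), and Gbp3 is a guanylate-binding protein gene induced by interferons.

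None of the wider pathway lists held a call in the tumours by limma. Of 52 other interferon-stimulated genes 26 were higher and 26 lower, with a median log2 fold change of 0.00. That median was -0.14 after TMM scaling and -0.18 in edgeR and -0.20 in DESeq2 on the recovered reads, and for the 18 targets of interferon gamma it was 0.00 on CPM, -0.14 after TMM scaling, -0.33 in edgeR and -0.36 in DESeq2. The median of all genes in those 3 fits was 0.01, -0.05 and -0.07. At an unadjusted p under 0.05 the list held Ly6e, at 369 ± 93.0 CPM with vehicle and 608 ± 151 with palbociclib (log2 fold change 0.73, adjusted p = 0.953), whose groups did not overlap, and Isg20, an RNA exonuclease, at 44.9 ± 39.7 and 9.31 ± 4.42 CPM (-1.58, adjusted p = 0.953). Trim21, a receptor for antibody inside cells, came next (-0.57, adjusted p = 0.953). Of 13 sensors and signalling genes, with none at an unadjusted p under 0.05, the smallest p-values were those of Mavs (0.43), Zbp1 (0.43) and Ifih1 (0.32), and of 11 receptors and kinases, again with none, those of Il10rb (-0.35), Jak1 (-0.18) and Ifngr2 (0.20), all as log2 fold changes. The same held for 10 brakes on signalling, led by Ptpn11 (0.40), Ptpn6 (-0.44) and Ptpn2 (0.31), and for 18 targets of interferon gamma, led by Irf1 (-0.60), Irgm2 (0.57) and Tap2 (-0.35). DESeq2 called none of these genes. Of the interferon genes, Ifnk alone is in the tumour files, at 0 to 4.74 CPM, with its highest value in vehicle 5, and it was below the level needed for the test.

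The 2 comparisons share no library, and they differ in tissue, age, host and treatment. Isg15 was 0.71 higher with the fusion in the livers and 1.08 lower with palbociclib in the tumours on the log2 scale. Usp18, its protease, stood at 25.4 ± 9.84 CPM with vehicle and 23.0 ± 8.22 CPM with palbociclib (adjusted p = 0.966 in limma), a value looked up after the result in the livers was seen. Iigp1, chosen in the same way, stood at 506 ± 172 and 554 ± 218 CPM in the tumours (adjusted p = 0.973 in limma). Ly6e was called lower with the fusion in the livers, and in the tumours its 5 palbociclib values all lay above the vehicle values without a call. The difference between the effects in livers and tumours was not tested.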

How the data were processed

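RNA of 9 embryonic livers (5 control, 4 fusion) and 10 FL8 tumours (5 vehicle, 5 palbociclib) was compared within each experiment, with groups taken from the genotype and treatment labels. Nothing in the labels says which samples shared a litter or mouse, so that p-values measure the spread between these samples. The authors deposited raw counts per gene symbol for the livers, aligned with STAR 2.5.1b per the submitters' processing notes, and CPM per gene for the tumours, made with cutadapt 2.10, HISAT2 and featureCounts per the same notes, both on mm10. The roles of DESeq2 and R 4.1.2 named there are not described. Whether counting used strand and how reads shared between genes were treated is not given in the sources used here. Of the 100-base windows of Ifit3 transcripts, 31.7% also occur in Ifit3b, and 3.29% of those of Ifit1 in Ifit1bl2. Irf7 overlaps Phrf1 on the opposite strand and Irf9 overlaps Rnf31, with 0.411% of windows shared. The levels of these 4 genes are therefore uncertain, and the genes outside the 9 were not checked in this way. The series text speaks of saline-treated control tumours and the labels of the carrier, and the labels were followed.

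Positions came from GENCODE M21, which gave a symbol for 17469 of 17606 tumour IDs, and promoter sequences from RefSeq (GRCm38.p6), which had a window for all 9 genes. The embryo test was the quasi-likelihood test of edgeR 4.0.16 (R 4.3.3) with TMM factors and filterByExpr, on 13316 genes. For the tumours limma 3.58.1, with trend, was run on log2(CPM + 1) of the deposited CPM, keeping the genes that averaged 1 CPM or more, and such log2 fold changes understate the change of low genes. Intervals cover 95%. Embryo levels are CPM after TMM scaling. In the tumours 100% of values were whole multiples of 1 read within a tolerance of 0.001, and the recovered reads were tested with edgeR and DESeq2 1.42.0 as alternatives. A count of 0 would allow up to 0.392 CPM in the embryos and 1.01 CPM in the tumours, for counting error only. Samples that were compared in pairs differed by more than counting noise. The scripts were tested on simulated data. The genes and lists were chosen with earlier results of these data known. Named genes are the 9, the 3 genes of each pathway list with the smallest p in each comparison and any called ones where 6 or fewer were called, and the 5 most like the mean of the 9 in each experiment. Alternatives were other normalizations, tools, filters, pseudocounts, covariates, batches and left-out libraries.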

Additional observations from a re-analysis of the deposited data

Results flagged for a closer look

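For each of the 9 genes in each of the 4 groups, the highest or lowest library was compared with the others by its gap relative to the range of the group (Dixon's criterion, 95%). Of 36 such groups 8 held a library far from the rest. At 1 in 20 about 1.8 would, if the groups were independent and normally distributed. The genes share their libraries, so 8 against 1.8 does not measure an excess. In the livers, Oasl2 was 22.56 CPM in control 3 against 17.1 to 18.5 CPM in the other controls. Rsad2 was 432.8 CPM in control 2 against 293.4 to 310.5 CPM. Oasl2 was 12.84 CPM in fusion 8 against 19.6 to 20.2 CPM in the other fusion livers. In the tumours, palbociclib 5 stood apart for 3 genes, Isg15 at 27.84 CPM against 12.3 to 14.0 CPM, Ifit3 at 79.81 CPM against 18.0 to 32.9 CPM and Oasl2 at 19.51 CPM against 5.40 to 7.76 CPM. Oasl2 was 35.05 CPM in vehicle 1 against 4.65 to 7.23 CPM in the other vehicle tumours. Bst2 was 357.9 CPM in vehicle 5 against 108.9 to 177.0 CPM.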

How the results depend on the processing

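Depth limited the tumour values most in vehicle 5, and the lists of the livers depended on the library batch. In the livers 1704 genes were called, against 4345 with the library batch as a covariate, 1284 with sex as a covariate, 2589 in the batch of higher ribosomal share alone and 2950 in the other, and 969 to 1581 when a library was left out (969 without control 3, 987 without fusion 8, 1107 without fusion 7). The wider list of interferon-stimulated genes held 3 calls, against 13 with the batch as a covariate, 10 in the batch of higher share and 0 to 2 when a library was left out. The 9 genes held 1 call, 0 in the batch of lower share and 0 to 1 when a library was left out, and their median log2 fold change of 0.05 ranged from -0.11 to 0.12 over those fits. None of the uncalled genes among the 9 was called under any alternative. Log2 fold changes near 0 changed sign, and the cause was not tested. Rsad2 was -0.0073 with the batch as a covariate, and in the batch of lower share Ifit1 was -0.21, Oasl2 0.036 and Rsad2 -0.076. Over the fits that left out a library, Ifit1 ranged from -0.030 (without fusion 9) to 0.25, Oasl2 from -0.11 to 0.070 (without fusion 8; 0.03 without control 3), Rsad2 from -0.11 (without fusion 9) to 0.19 and Bst2 from -0.43 to 0.018 (without control 2). In the tumours 0 genes were called, against 8 by DESeq2 on the recovered reads. Irf9 turned to -0.059 after TMM scaling, -0.058 on CPM without mitochondrial genes, -0.084 in edgeR and -0.10 in DESeq2, where Ifngr2 was -0.0051. With vehicle 1 and vehicle 5 both left out, a setting chosen after seeing the data, Ifit1 was 0.086, Ifit3 0.23, Irf7 0.18, Stat2 -0.17, Oasl2 0.41 and Ptpn11 -0.034. Over the fits that left out a tumour, Ifit1 ranged from -0.52 to 0.0074 (without palbociclib 2), Stat2 from -0.00058 (without vehicle 1) to 0.31 and Oasl2 from -0.44 to 0.35 (without vehicle 1). The replicate numbers of the tumours do not pair them (r of deviations -0.32 to 0.00 over 5 pairs, 0 of 5 closest to their own number), and with the replicate block 0 genes were called and Isg15 had an adjusted p of 0.999 in limma.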
